A study of Homo sapiens with 2 samples.

Results

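The S100 proteins are small calcium-binding proteins, and 10 of their genes are described from RNA bisulfite sequencing of 2 human breast cell lines. In this assay RNA is treated with sodium bisulfite, which turns unmethylated cytosine into uracil, so that a cytosine still read as C is counted as unconverted and one read as T as converted. The genes were S100A2, S100A4, S100A6, S100A8, S100A9, S100A10, S100A11, S100A14, S100A16 and S100P. They were chosen by the coverage measured in these same libraries, so their coverage is given as a description and was not tested. MCF10A is a non-tumorigenic mammary epithelial line, grown in DMEM/F12 with horse serum, EGF, hydrocortisone and insulin according to the methods, and MDA-MB-468 is a breast cancer line, grown in RPMI with fetal bovine serum. The media named in the methods differ between the lines, and then line and medium cannot be told apart, while the labels name DMEM for both. For both lines poly(A)+ RNA was treated at 60 degrees for 8 hours, and neither line received any other treatment. There was 1 library per line and no replicate. Every test below therefore compared 2 libraries, and every interval covers counting error at most.

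A site was a cytosine on an exon of the gene's own strand, and its coverage was its converted plus unconverted reads. A site was kept at a coverage of at least 10. The 10 genes held 2392 exonic cytosines, of which 1156 were kept in MCF10A, 1232 in MDA-MB-468 and 923 in both. All kept sites numbered 1584002 in MCF10A and 1271253 in MDA-MB-468. They were the sites on same-strand exons of all genes and those of the mitochondrial chromosome. The unconverted share is the percentage of reads that stayed C. It holds methylated cytosines (m5C) together with every cytosine that bisulfite failed to convert. Numbers of reads summed over sites count a read once at every site it covers. They are therefore not numbers of separate reads, and the intervals of pooled shares are narrower than those of separate reads would be. A site was called an m5C site where its unconverted share was above that of all kept sites, at a Benjamini-Hochberg adjusted p under 0.05 by a one-sided Fisher's exact test.

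S100 proteins carry a pair of EF-hand motifs, the helix-loop-helix fold that holds calcium, and most act as dimers that bind other proteins when calcium rises. Most of their genes lie side by side in the epidermal differentiation region of chromosome 1, and S100P lies on chromosome 4. Several are made in epithelia and some, above all the S100A8 and S100A9 pair called calprotectin, are also released by myeloid cells as alarm signals. The methyl group at carbon 5 of cytosine in messenger RNA is placed by enzymes such as NSUN2, and bisulfite leaves it as C.

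A few of the sites that the results name are shown by 29 bases of the GRCh37 reference around each of them, in the direction of the transcript, with the site as the capital C. They were taken from called sites with a coverage of at least 20, so some less covered sites had higher shares, and no site of S100P reached that coverage in MCF10A. The first pair shows the calprotectin genes, where nearly every kept cytosine of the MCF10A library was called, the next pair shows sites with the same behaviour in both libraries or a call at very high coverage, and the last 3 show sites in untranslated regions.

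S100A9, coding sequence, chr1:153330811-153330839, plus strand: accttccaccaataCtctgtgaagctggg
S100A8, coding sequence, chr1:153362937-153362965, minus strand: accacaagtactccCtgataaaggggaat
S100A11, 5′ untranslated region, chr1:152009406-152009434, minus strand: gccgctcccagccaCagcctcccgcgcct
S100A6, coding sequence, chr1:153507224-153507252, minus strand: gaccaggaggtgaaCttccaggagtatgt
S100A14, 5′ untranslated region, chr1:153588360-153588388, minus strand: ggccagctataggaCaacagaactctcac
S100A9, 3′ untranslated region, chr1:153333419-153333447, plus strand: ccagggccccggggCctgttatgtcaaac
S100A16, 3′ untranslated region, chr1:153579574-153579602, minus strand: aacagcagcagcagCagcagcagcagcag

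All kept sites, mitochondrial ones included, held 60580227 reads for MCF10A and 42429746 for MDA-MB-468, at a median coverage of 18 for each. Of these reads 1.99% and 1.81% were unconverted, and 1.94% and 1.77% at the nuclear sites alone. Line markers were checked. RB1, deleted in MDA-MB-468, had no listed site there and CDKN2A, deleted in MCF10A, had none in MCF10A, while the level of EGFR, amplified in MDA-MB-468, was 3.66 higher there on the log2 scale. The epithelial markers EPCAM and CDH1 were nearly absent from the MCF10A library, with 1 and 6 listed sites against 215 and 320 in MDA-MB-468, whereas VIM was the reverse, with 494 against 11. The keratins were present in the MCF10A library. KRT5 had 478 listed sites there against 318, and KRT14 had 31 against 0. KRT8, KRT18 and KRT17 had fewer listed sites there, 269, 132 and 264, than the 301, 282 and 303 of the MDA-MB-468 library. The log2 differences in level, MDA-MB-468 over MCF10A, were 3.50 for KRT8, 3.93 for KRT18, 3.63 for KRT17 and -0.945 for KRT5. Sites below a coverage of 5 are not listed in either library. At the coverage minimum itself, the 37 member sites of MCF10A with a coverage of 10 had an unconverted share of 21.9% and the 56 sites with 9 had 18.8%, and in MDA-MB-468 the 37 sites with 10 had 7.57% and the 32 with 9 had 7.29%.

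The levels of the 10 genes formed 3 groups. Levels are the mean coverage per exonic cytosine, per 1000000 reads at exonic sites, which allows genes of different length to be set side by side. S100A8, S100A9, S100A14, S100P and S100A4 were at least 2-fold higher in MDA-MB-468, which 28.0% of the 11678 protein-coding genes were. S100A2 and S100A6 were at least 2-fold higher in MCF10A, which 35.9% were. S100A10, S100A11 and S100A16 were within 2-fold. The median log2 difference of the 9329 genes with a level in both lines, MDA-MB-468 over MCF10A, was -0.20, and relative to it 5 members were again at least 2-fold higher in MDA-MB-468 and 2 in MCF10A. Coverage chose these genes, so nothing is read from these counts, and with 1 library per line no level was tested.

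**Figure D1:**
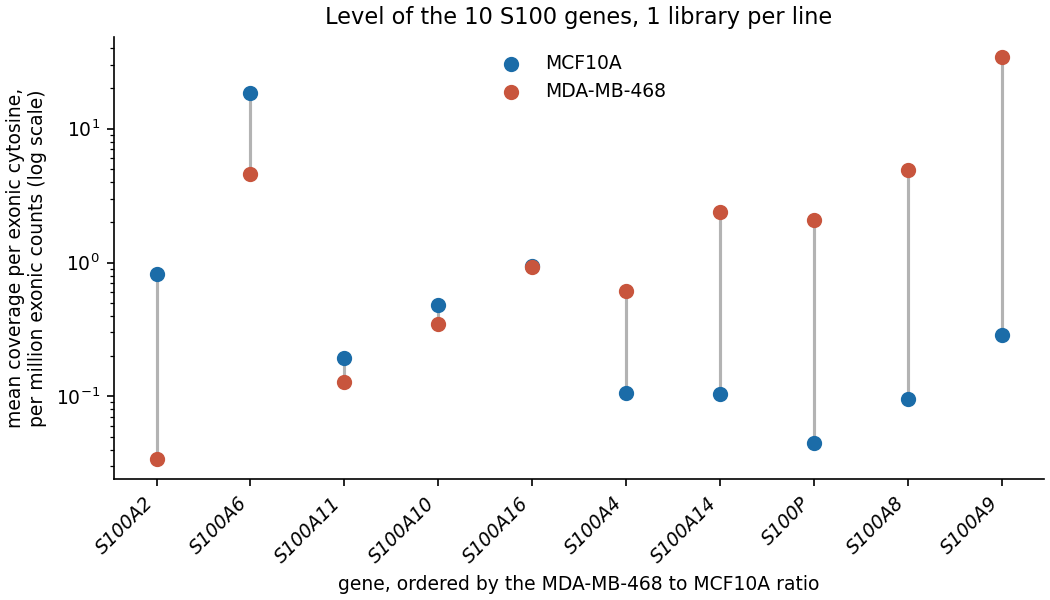
Level of each S100 gene (mean coverage per exonic cytosine per 1000000 exonic reads, log scale) in MCF10A (blue) and MDA-MB-468 (red), 1 library per line, with a grey bar joining both values of a gene. S100A9 spans the widest range, from 0.287 in MCF10A to 34.5 in MDA-MB-468, and S100A16 has nearly the same level in both.

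The calprotectin pair was furthest apart. S100A9 had a level of 0.287 in MCF10A and 34.5 in MDA-MB-468, where it ranked 1 among the 11678 genes. The difference was 6.91 on the log2 scale. S100A8, its binding partner, had 0.0951 and 4.88, a difference of 5.68, and ranked 11 in MDA-MB-468. S100P, first found in placenta and a binding partner of the membrane linker ezrin, had 0.0449 and 2.08, a difference of 5.54. Only 43 of its 112 exonic cytosines were listed in MCF10A, and with every unlisted cytosine set to a coverage of 4 in MCF10A the difference was 4.69. S100A14, an epithelial member of the family, had 0.104 and 2.41, a difference of 4.54. S100A4, which binds nonmuscle myosin and is best known from studies of metastasis, had 0.105 and 0.609, a difference of 2.53.

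S100A2 and S100A6 were the members with the higher level in MCF10A. S100A6, also called calcyclin, ranked 2 in MCF10A with a level of 18.4 and 12 in MDA-MB-468 with 4.63, a log2 difference of -1.99. S100A2, known from basal epithelial cells, had 0.819 in MCF10A and 0.0341 in MDA-MB-468, a difference of -4.59, or -2.96 with unlisted cytosines of MDA-MB-468 at 4. The other three were close. S100A10, which has lost calcium binding and pairs with annexin A2, had 0.484 and 0.349. S100A11, which binds annexin A1, had 0.195 and 0.127, and S100A16 had 0.944 and 0.921.

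In the MCF10A library 4 of the 10 genes had shares far above the 1.99% of all kept sites. The pooled share was 58.8% for S100A8 (388 of 660 read counts at sites of coverage 26 or less, 95% Wilson interval 55.0 to 62.5). It was 56.5% for S100P (61 of 108 read counts at sites of coverage 13 or less, 47.1 to 65.4), and 33.2% with sites down to a coverage of 5. S100A9 had 48.1% (1463 of 3040 read counts, 46.4 to 49.9) and S100A14 had 24.1% (405 of 1683 read counts, 22.1 to 26.2). In MDA-MB-468 the same genes had 2.24% (2.07 to 2.42), 1.88% (1.64 to 2.14), 1.81% (1.76 to 1.86) and 2.60% (2.44 to 2.77). These 4 genes were the ones with the largest excess of level in MDA-MB-468.

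**Figure D2:**
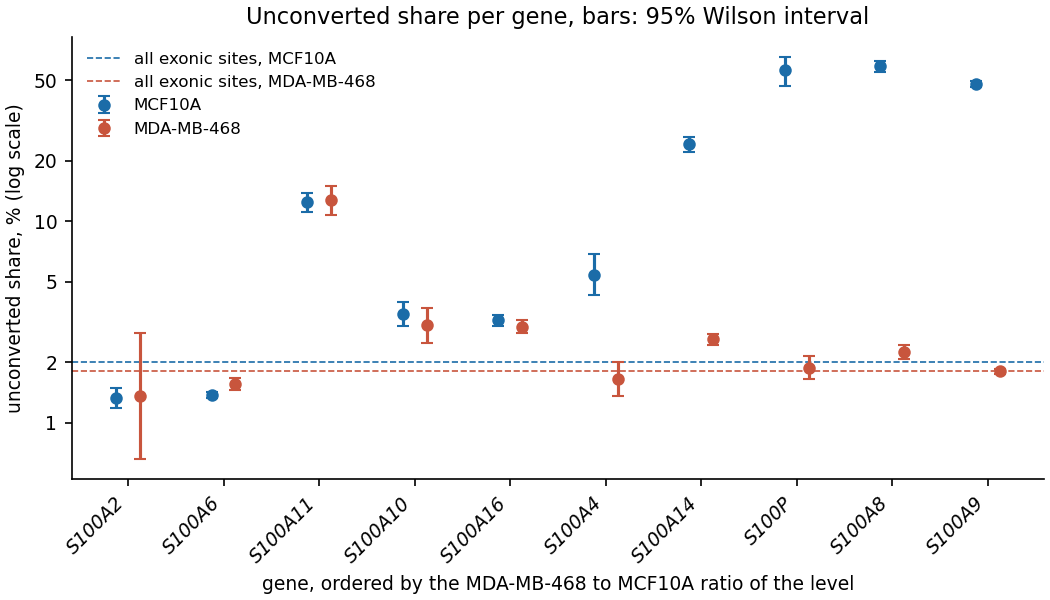
Unconverted share (percent of reads, log scale) of each S100 gene over its kept sites in MCF10A (blue) and MDA-MB-468 (red), with 95% Wilson intervals that cover counting error at most. Dashed lines mark the share of all kept sites, mitochondrial ones included, 1.99% and 1.81%. S100A14, S100P, S100A8 and S100A9 lie far above them in MCF10A alone, while S100A11 lies above them in both lines.

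Called m5C sites followed the same division only in part. On S100A11 43.1% of the kept MCF10A sites were called, against 41.7% on S100A14. In MCF10A 252 of the 1156 kept member sites were called, 21.8%, against 0.960% of all kept sites. In MDA-MB-468 44 of 1232 were called, 3.57%, against 0.840%. S100A8 had 36 of 36 kept sites called in MCF10A, S100A9 110 of 112, S100P 9 of 9 and S100A14 48 of 115. S100A11 had 31 of 72, S100A16 15 of 340 and S100A6 3 of 176, and S100A2, S100A4 and S100A10 had none. The coverage minimum counts unconverted reads too. In MCF10A the kept sites of S100P and S100A8 had medians of 5 and 9 converted reads. Some of these sites were thus kept only through their unconverted reads. In MDA-MB-468 the calls were 11 on S100A14, 11 on S100A16, 10 on S100A9, 10 on S100A11 and 2 on S100A8, and the other 5 genes had none. With each site set against the rest of its own gene instead of all kept sites, 21 sites were called in either line.

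The 2 lists of calls had 15 sites in common, which is 5.95% of the MCF10A calls and 34.1% of the MDA-MB-468 calls. Of these, 7 were on S100A9, 6 on S100A11, 1 on S100A14 and 1 on S100A16. Of the 252 sites called in MCF10A, 250 were kept in MDA-MB-468 as well, where a call at a coverage of 10 needed 4 unconverted reads.

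The 923 sites kept in both lines were compared directly site by site with Fisher's exact test, two-sided and adjusted over all 812729 shared sites. Of them, 180 differed between the libraries, 19.5%, and all 180 were lower in MDA-MB-468, against 0.0691% of all shared sites. They were 109 of the 112 shared sites of S100A9, 36 of 36 of S100A8, 26 of 115 of S100A14 and 9 of 9 of S100P. As with the calls, some of these sites were kept in MCF10A only through their unconverted reads. The coverage minimum thus favoured sites with a high MCF10A share, and these counts are a description. No site of the other 6 genes passed by Fisher's exact test. At an unadjusted p under 0.05 there were 14 of 131 on S100A6, 9 of 51 on S100A4, 6 of 303 on S100A16 and 1 each on S100A2, S100A10 and S100A11.

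**Figure D3:**
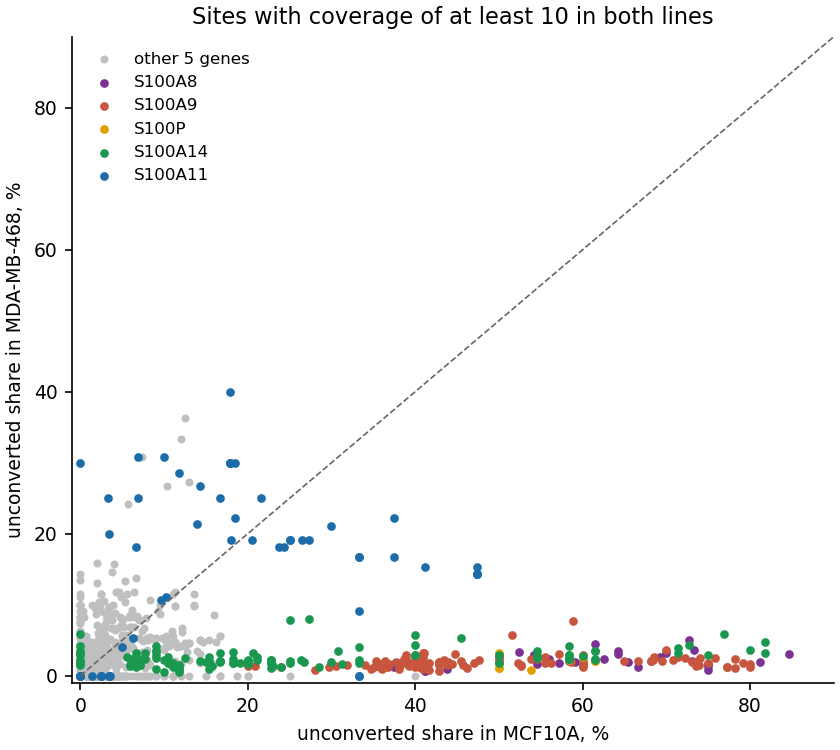
Unconverted share (percent) of the 923 sites kept in both lines, MCF10A on the horizontal and MDA-MB-468 on the vertical axis, each point 1 site and the dashed line equality. The sites of S100A8, S100A9 and S100P lie along the floor of the plot between 20% and 84.6% in MCF10A, while many sites of S100A11 are raised in both lines.

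S100A9 was unconverted over long stretches in the MCF10A library. Its 112 kept sites ran from 20% to 80% with a median of 43.2%, and the coding sequence had 49.7% (47.8 to 51.7) and the 3′ untranslated region 39.96% (35.8 to 44.3). Beyond the last kept site, the sites listed from base 474 to base 502 had 0 to 2 unconverted of 5 to 9 reads. At the site shown above, at base 109 of the transcript, the MCF10A library had 20 of 25 reads unconverted, 80%, and the MDA-MB-468 library 20 of 1263, 1.58% (adjusted p = 8.97e-24 by Fisher's exact test). Among sites covered at least 20 times by each library, the 10 that differed most all lay on this gene, between bases 96 and 135, with differences of -72.2 to -78.7 percentage points. At the most covered of the raised sites, base 252, 20 of 53 reads stayed unconverted against 87 of 4441 for MDA-MB-468. Neighbouring kept cytosines within 10 bases differed by a median of 1 unconverted read over 108 pairs. This step was not particular to S100A9, since in MCF10A it was also 1 on S100A2 and S100A16 and 0 on S100A4 and S100A10.

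**Figure D4:**
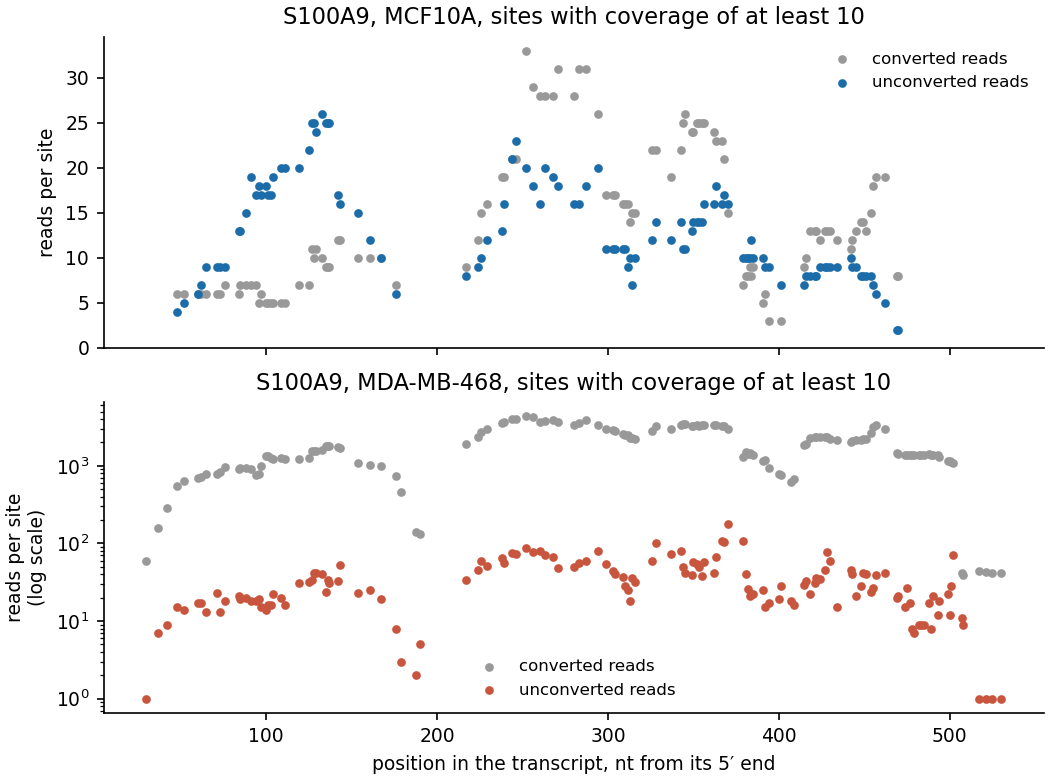
Converted (grey) and unconverted (coloured) reads per kept site along the S100A9 transcript, in bases from its 5′ end, in MCF10A (upper, linear axis) and MDA-MB-468 (lower, log axis). In MCF10A unconverted reads outnumber converted ones from base 62 to base 161, at base 246 and from base 370 to base 401, and lie between 2 and 26 per site, while in MDA-MB-468 they stay far below the converted reads at every site.

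S100A8 behaved in the same way over a shorter stretch. Its 36 kept sites ran from 37.5% to 84.6% with a median of 58.7%, and the lowest of them lay above the highest of the same sites in MDA-MB-468, 5.06%. At the site shown above, base 116, 19 of 26 MCF10A reads were unconverted against 14 of 689 for MDA-MB-468 (adjusted p = 1.24e-18 by Fisher's exact test). S100P had few reads in MCF10A. Its 9 kept sites lay within bases 42 to 75, across the start codon, with 5 to 8 unconverted of 10 to 13 reads each. In MDA-MB-468 the same sites ran from 0.865% to 3.16%.

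S100A14 was divided within itself. In MCF10A its 3′ untranslated region had 33.8% unconverted (30.5 to 37.3), above the 14.9% (12.02 to 18.4) of its coding sequence and the 17.6% (14.4 to 21.4) of its 5′ untranslated region. Of its 48 calls, 32 were in the 3′ untranslated region. Among sites with a coverage of at least 20 the highest call was the one shown above, base 70, with 6 of 25 reads unconverted against 3 of 235 for MDA-MB-468 (adjusted p = 0.0354 by Fisher's exact test). Its MDA-MB-468 calls were 10 in the 3′ untranslated region and 1 in the coding sequence, with shares of 5.35% to 28.6%.

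3 other measurements were set beside these shares, and the first was the level itself. Among the 8489 protein-coding genes with at least 5 kept sites in MCF10A the median share was 1.75%, and 88 genes, 1.04%, were above 10%. Genes at least 16-fold higher in MDA-MB-468, which S100A8, S100A9, S100A14 and S100P were, had a median share of 8.79% in MCF10A, and 25 of these 52 genes were above 10%. The median was 3.20% for the 85 genes 8 to 16-fold higher, 2.24% for the 296 genes 4 to 8-fold higher, which held S100A4, and 1.42% for the 2007 genes at least 4-fold lower. In MDA-MB-468, genes at least 16-fold higher in MCF10A had a median share of 1.51% over 29 genes, of which none was above 10%. The genes above 10% there were 0.811%, 1.39%, 1.61% and 1.16% of those up to 2-fold, 2 to 4-fold, 4 to 8-fold and 8 to 16-fold higher in MCF10A, and 0.271% to 0.485% of those lower. The level and the coverage minimum of kept sites count the unconverted reads too. With converted reads alone the ratio of the levels was 220-fold for S100A9 and 120.0-fold for S100A8. The part of the level in the shares was not tested.

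**Figure D5:**
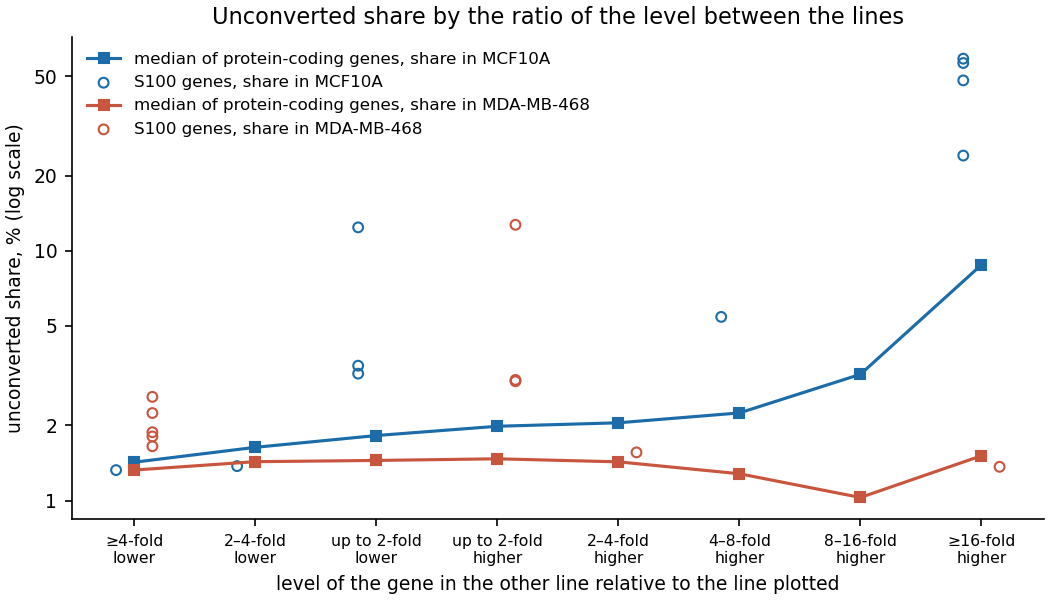
Unconverted share (percent, log scale) against how much higher or lower the gene's level was in the other line, with squares for the median of protein-coding genes and open circles for the S100 genes, MCF10A in blue and MDA-MB-468 in red. The MCF10A median climbs to 8.79% among genes at least 16-fold higher in MDA-MB-468, where 4 S100 genes lie between 24.1% and 58.8%, and the MDA-MB-468 medians stay between 1.03% and 1.51%.

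The second was the opposite strand. Facing the exons of S100A9, where no exon is annotated on that strand, 130 cytosines were listed in MCF10A and 125 in MDA-MB-468. Of the reads there 98.2% (2227 of 2267) and 98.9% (1606 of 1624) were unconverted. Their median coverage was 17 for MCF10A and 13 for MDA-MB-468, while the gene's own strand had a median of 12 unconverted and 12.5 converted reads per kept site in MCF10A and 27.5 and 1548.5 in MDA-MB-468. S100A8 had 68 such sites in MCF10A (98.8% unconverted) and 27 in MDA-MB-468 (99.3%), S100A14 had 85 (98.1%) and 31 (99.5%), and S100A6 had 51 (97.7%) and 37 (99.1%). S100A11 and S100A16 had 5 to 17, all at 97.8% or more, and S100A2, S100A4, S100A10 and S100P had none listed in either line. Over all protein-coding genes 58.6% of the opposite-strand MCF10A reads and 12.9% of those of MDA-MB-468 were unconverted. The listed reads facing the S100 genes were thus nearly all unconverted in both libraries, with high and with low shares on the gene's own strand. Along the genes the relation had no common sign: over kept MCF10A sites within 10 bases of a listed opposite-strand site, unconverted reads and opposite-strand coverage had r = 0.57 on S100A9 (95 sites), 0.42 on S100A16 (28 sites), -0.47 on S100A6 (48 sites) and -0.75 on S100A8 (20 sites). In MDA-MB-468 it was 0.26 on S100A9 (130 sites), 0.53 on S100A8 (27 sites) and -0.32 on S100A6 (36 sites). From these counts m5C and reads that went unconverted for another reason cannot be told apart, and this limits what the calls on S100A8, S100A9, S100A14 and S100P mean.

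The third was the shape along the gene, given as a description over neighbouring sites that share reads. On S100A9 the converted reads of MCF10A followed the coverage of MDA-MB-468 over the 112 shared sites (Pearson r = 0.94), and the unconverted reads of MCF10A did not (r = 0.20). On S100A8 the values were 0.89 and -0.08 over 36 sites, and on S100A14 0.44 and -0.39 over 115 sites. Genes with lower shares had a like difference, with 0.91 and 0.34 on S100A2 (27 sites), 0.88 and -0.43 on S100A4 (51 sites), 0.82 and 0.27 on S100A10 (85 sites) and 0.91 and -0.01 on S100A11 (54 sites), so the shape was not particular to the genes with high shares. On S100A16 the values were 0.85 and 0.49 over 303 sites and on S100A6 0.99 and 0.91 over 131 sites.

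S100A4 had an intermediate share. It was 5.44% in MCF10A (66 of 1214 reads, 4.30 to 6.86) and 1.65% in MDA-MB-468 (97 of 5880 reads, 1.35 to 2.01), and over the 51 sites kept in both lines 5.44% and 1.70%. Every kept MCF10A site of S100A4 from base 92 to base 132 had 2 unconverted reads, so the same reads may recur in the pooled count. No site was called in either line, at a median coverage of 25 and 55. At a coverage of 20 a call needed 5 unconverted MCF10A reads or 4 of MDA-MB-468, and at 50 it needed 6 of either, so single sites with shares of this size were not detectable at this depth.

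S100A11 was the member whose share was high in both lines, 12.4% in MCF10A (300 of 2417 reads, 11.2 to 13.8) and 12.7% in MDA-MB-468 (129 of 1015 reads, 10.8 to 14.9). At a coverage of at least 20 the shares were 10.1% and 7.54%. The share was higher in its 5′ untranslated region, with 21.4% (19.0 to 24.0) and 19.5% (16.3 to 23.1), against 5.44% and 5.79% in the coding sequence. All protein-coding genes had 2.70% and 2.56% in the 5′ untranslated region and 1.84% and 1.65% in coding sequence. Both regions of S100A11 thus lay above these values in both lines. Of its calls, 26 of 31 for MCF10A and 9 of 10 for MDA-MB-468 were in the 5′ untranslated region, in MCF10A from base 32 to base 80 and in MDA-MB-468 from base 25 to base 61. From base 49 to base 68 the MCF10A library had exactly 9 unconverted reads at each kept site while its coverage ran from 36 to 19. At the site shown above, base 61, 9 of 24 and 4 of 18 reads were unconverted.

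S100A11 also has processed copies in the genome. After conversion of C to T, 42 of its 186 exonic cytosines had a 51-base window found elsewhere, on chromosomes 7 and 12, but of the kept sites only 3 in MCF10A and 2 in MDA-MB-468 were among them. Of the 8 annotated S100A11 pseudogenes, 1 had listed sites, S100A11P1 on chromosome 7, with 10 in each line and shares of 4.58% and 8.55%. Without the recurring windows S100A11 had shares of 12.5% (MCF10A) and 13.3% (MDA-MB-468).

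S100A16 and S100A10 lay slightly above the share of all sites in both lines. S100A16 had 3.22% (3.03 to 3.42) in MCF10A and 3.003% (2.78 to 3.24) in MDA-MB-468. Its calls were gathered in the 3′ untranslated region, 14 of 15 and 11 of 11. In MCF10A the highest at a coverage of at least 20 was base 686, with 11 of 68 reads unconverted against 3 of 64 in MDA-MB-468. In MDA-MB-468 it was base 946, in the GCA repeat shown above, with 8 of 33 reads against 2 of 35 in MCF10A. Each of the 4 neighbouring repeat units at bases 946, 949, 952 and 955 was called in MDA-MB-468 and none in MCF10A, although the difference between the libraries did not pass at any of them. S100A10 had 3.47% (3.03 to 3.96) and 3.04% (2.48 to 3.73). In MCF10A its 5′ untranslated region had 10.05% (8.16 to 12.3) over 44 kept sites and in MDA-MB-468 2.32% (1.39 to 3.86) over 31. Every kept MCF10A site of S100A10 from base 40 to base 62 had 3 unconverted reads, so the same reads may recur in the pooled count. No site of S100A10 was called.

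S100A6 and S100A2 lay below the share of all sites, although the interval of S100A2 in MDA-MB-468 included it. S100A6 had 1.37% in MCF10A (4317 of 314330 reads, 1.33 to 1.41) and 1.56% in MDA-MB-468 (878 of 56325 reads, 1.46 to 1.66). Its 5′ untranslated region had 1.77% (1.58 to 1.98) over 94 kept sites in MCF10A and 4.53% (3.82 to 5.36) over 51 in MDA-MB-468. In MDA-MB-468 every kept site of S100A6 from base 3 to base 31 had 3 or 4 unconverted reads, so the same reads may recur in the pooled count. Its median coverage of 717 in MCF10A was the deepest of the members there, and at such coverage low shares were called. The coding site shown above, base 271, was called with 172 of 5224 reads, 3.29% (adjusted p = 1.16e-07 by Fisher's exact test), while in MDA-MB-468 it had 24 of 1060 reads, 2.26%, and was not called. Its other 2 calls in MCF10A had 4 unconverted reads each of 10 and 12. S100A2 had 1.32% (1.18 to 1.48) and 1.36% (0.663 to 2.79), the second over 27 sites with 7 unconverted reads.

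The deepest member sites of MDA-MB-468 were on S100A9, with a median coverage of 1590, and there calls were made at low shares. Base 370 had 178 of 3116 reads unconverted, 5.71%, and base 379 had 106 of 1385, 7.65%. Base 328 had 100 of 3390, 2.95%, the lowest share among the calls. The highest share at a coverage of at least 20 was base 507 in the 3′ untranslated region, shown above, with 11 of 52 reads, and this cytosine was predicted to be base-paired. Of these calls 7 were kept in MCF10A and called there, where 110 of the 112 kept sites of the gene were.

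The calls lay close together. In MCF10A 248 of 252 calls had another call within 10 bases, and in MDA-MB-468 36 of 44 did. A predicted fold of each transcript paired 14.4% of the called sites and 8.67% of the kept sites in MCF10A, and 9.09% and 9.99% in MDA-MB-468. On S100A9, which held 24 of the 36 paired calls of MCF10A, these were 21.8% and 21.4%. By region, 45 of 311 kept MCF10A sites in 5′ untranslated regions were called, 137 of 517 in coding sequence and 70 of 328 in 3′ untranslated regions, where 2.24%, 0.708% and 0.837% of the kept sites of all protein-coding genes were. In MDA-MB-468 these were 10 of 262, 8 of 584 and 26 of 386, against 1.95%, 0.628% and 0.739%. A site was placed in the 5′ untranslated region if any transcript had it there, even where it was coding in another. On S100A2 this held for the sites from base 375 to base 437, which lie between coding bases.

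Of 11 other S100 genes, 2 had kept sites in both lines and none had a call in either. S100A13 had a level of 0.858 in the MCF10A library and 0.539 in the other, with shares of 1.93% and 1.34%, and S100A3 had 0.0390 and 0.0642, with shares of 2.19% and 1.12%. S100A1, S100A7 and S100A7A had listed sites in MDA-MB-468 only. S100A7, psoriasin, had a level of 3.07 there, above that of S100A14, with a share of 1.02% (0.888 to 1.17), and no site listed in MCF10A. S100A5, S100A7L2, S100A12, S100B, S100G and S100Z had no site listed in either line.

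Among 8 genes of S100 partners and receptors, the ezrin gene had the largest excess of unconverted share in MCF10A. EZR had a level 2.63 higher on the log2 scale in MDA-MB-468, with shares of 5.55% (5.07 to 6.07) in MCF10A and 1.81% (1.68 to 1.95) in MDA-MB-468, and all 9 calls on it came from MCF10A. The annexin partner of S100A10, ANXA2, had 1.70% and 1.57%, and that of S100A11, ANXA1, had 2.03% and 1.11%. AHNAK, which binds the S100A10 and annexin A2 complex, had 2.17% and 1.83%, and the myosin MYH9 had 2.002% and 1.66%. CACYBP, the binding partner of S100A6, had 4.06% (3.27 to 5.03) and 6.24% (4.43 to 8.72) with no call. The receptors AGER and TLR4 each had kept sites in 1 line only, with shares of 1.16% in MDA-MB-468 and 1.10% in MCF10A.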

How the data were processed

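The deposited values are counts: per the file headers, the authors gave for each cytosine the reads read as C (m5C) and as T (NakedC). According to the methods, reads were trimmed with Trim Galore at a Phred score of 20, aligned to hg19 and called with MeRanTK; the submitters' processing notes name Trim Galore and Bismark. No versions were given in the sources used here. The lowest coverage in the files was 5. All nuclear sites lay on cytosines of GRCh37. Sites were assigned to same-strand exons of GENCODE 44 basic transcripts and kept at a coverage of 10. Where transcripts differed, the 5′ untranslated region came before the coding sequence, and that before the 3′ untranslated region. Sites of the mitochondrial chromosome at that coverage were kept as well and belong to the background. The members and lists were chosen with earlier results of these data known. Sites were called by Fisher's exact test against the pooled background with Benjamini-Hochberg adjustment. The procedure was tested on simulated counts drawn independently for each site. That test does not measure false calls where neighbouring sites share reads. The text names every member. Sites were listed as the highest called site per gene and line at a coverage of 20, the 5 most covered called sites per line at a share of 20%, and the 10 largest differences at a coverage of 20. Only some of the listed sites are named, and some other sites are named as well. Genes were ranked with at least 10 listed sites in either line. Structures were predicted with ViennaRNA 2.7.2 at 70 degrees with a maximum pairing distance of 150. The level was scaled to 68863765 and 49424455 reads at nuclear exonic sites. Python 3.11.15, numpy 2.4.6, pandas 2.3.3 and scipy 1.17.1 were used. Alternatives were another coverage minimum, background, test, transcript set, structure filter and scaling. Intervals are 95% Wilson intervals. PCR reads without molecular identifiers are not independent molecules, and neighbouring cytosines share reads.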

Additional observations from a re-analysis of the deposited data

Results flagged for a closer look

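The unconverted share differed between the libraries by the test of the difference itself at 36 sites of S100A8, 109 of S100A9, 26 of S100A14 and 9 of S100P, in each case with the higher share in MCF10A. With 1 library per line, these differences are between libraries. Some of these sites were kept in MCF10A only through their unconverted reads, so the coverage minimum favoured a high MCF10A share.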

How the results depend on the processing

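No paired analysis was possible because each line had 1 library, and for the same reason no replicate could be left out. At a coverage minimum of 20, 157 instead of 252 member sites were called in MCF10A and 104 instead of 180 differed between the lines. With the background of the same gene 21 sites were called in MCF10A and 21 instead of 44 in MDA-MB-468, and a ratio of at least 20% left 19 in MDA-MB-468. The pooled share of the 10 genes, 2.22% in MCF10A and 1.959% in MDA-MB-468, followed the deepest genes. In MCF10A it was 2.31% at a coverage minimum of 5, 2.005% at 20, 1.56% without the called sites and 3.26% as the median of the sites. In MDA-MB-468 it was 1.81% without the called sites and 2.11% as the median. By alternatives chosen after seeing the data, the mean of the gene shares was 21.5% and 3.18%, the share without S100A6 6.14% and 2.02%, and that without S100A9 1.86% and 2.22%. The number of genes at least 2-fold higher in MCF10A, 2, was 4 with levels scaled by all deposited reads. It was 0 by the median coverage and 1 at 4-fold. In MDA-MB-468 5 genes were higher under every setting run, converted reads alone included, which was also chosen after seeing the data. By the median coverage, S100A4, S100A8 and S100P had a median of 0 in MCF10A and were counted without a finite ratio. S100A2 had a median of 0 in both lines and so no ratio. Of 177 alternative values of the share of single genes, 150 lay within the interval of the value reported and 27 did not. Those that moved by over 1.5 times were S100P at a coverage minimum of 5 (33.2%, MCF10A), S100A11 at a minimum of 20 (7.54%, MDA-MB-468), S100A9, S100A11 and S100A14 without the called sites (20%, 4.74% and 11.3%, MCF10A) and S100A2 as the median of the sites (0 in both lines). Depth limited the calls: at a coverage of 10 a call needed 4 unconverted reads in either line. The causes of these changes were not tested.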

Other observations

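Introns of the S100 genes were listed mostly in MDA-MB-468. S100A9 had 338 intronic sites there with 6114 reads, of which 1.42% were unconverted, and S100P had 269 sites with 3172 reads and 1.70%, and neither gene had an intronic site listed in MCF10A. S100A16 had 149 intronic sites in MDA-MB-468, at 0.674%, and 25 in MCF10A, at 3.50%. S100A6 had 63 and 93, at 2.66% and 3.82%.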
